A study of Homo sapiens with 21 samples.

Results

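The genes described here are 41 genes of DNA replication, each found by its symbol among the 20111 genes listed for PC-9, a human lung adenocarcinoma cell line with an activating deletion in exon 19 of EGFR. They were chosen by name and cover the steps from licensing of the origin to joining of the new strands. Earlier results of these data were known when they were listed, so the list was not tested as a set. There were 6 members of the MCM helicase, 4 of origin recognition and licensing, 6 of helicase activation, 6 of the sliding clamp and its loader, 7 of primase and the polymerases, 3 of single-strand binding, 3 of Okazaki fragment processing, 3 of nucleotide supply, and 3 that govern entry into S phase (CCNE1, CCNE2 and E2F1).

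Polyadenylated RNA was sequenced in 2 experiments with 3 libraries per group. In the first experiment, untreated parental PC-9 cells were compared with EGFR-low and EGFR-high populations and harvested 24 h after seeding. In the second, EGFR-low and EGFR-high cells received DMSO, the solvent, or 1 µM vorinostat (SAHA), an inhibitor of histone deacetylases, for 72 h, and there was no parental group. The populations had been enriched from the parental line by repeated sorting on EGFR at the cell surface and were kept apart by further sorting, so each is a sorted pool of 1 cell line, and all groups share its EGFR deletion. The labels name that deletion with an end residue that differs from library to library. Levels are FPKM, a fragment count scaled by the transcript's length and the library's size, and differences are log2 fold changes on the scale of log2(FPKM + 1), which understates the change of low genes.

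Replication starts in G1 phase, when ORC1 to ORC6, CDC6 and CDT1 load the MCM2 to MCM7 ring onto origins. At the start of S phase, MCM10, CDC45 and the GINS complex turn this ring into an active helicase. POLA1, POLA2 and PRIM1 make the primers, RFC1 to RFC5 load the PCNA clamp, and the polymerases delta and epsilon extend the strands, while RPA1 to RPA3 cover single-stranded DNA and FEN1, LIG1 and RNASEH2A finish the Okazaki fragments. RRM1, RRM2 and TK1 supply deoxynucleotides. Many of these genes are transcribed from E2F sites in late G1 and S phase, and their RNA is widely used as a measure of the share of cycling cells.

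All 41 members passed the filter on low values (at least 1 FPKM in at least 3 libraries) in both experiments. In parental cells the lowest mean level was that of E2F1, one of the E2F transcription factors, at 4.22 ± 1.90 FPKM (SD, n = 3). The highest was that of PCNA, at 220.0 ± 41.5 FPKM (SD, n = 3). Together the members held 0.188 to 0.324% of the summed FPKM of an untreated library and 0.104 to 0.245% in the second experiment. In the map of member levels many rows were high or low in the same libraries, so that the members were not independent of each other.

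**Figure D1:**
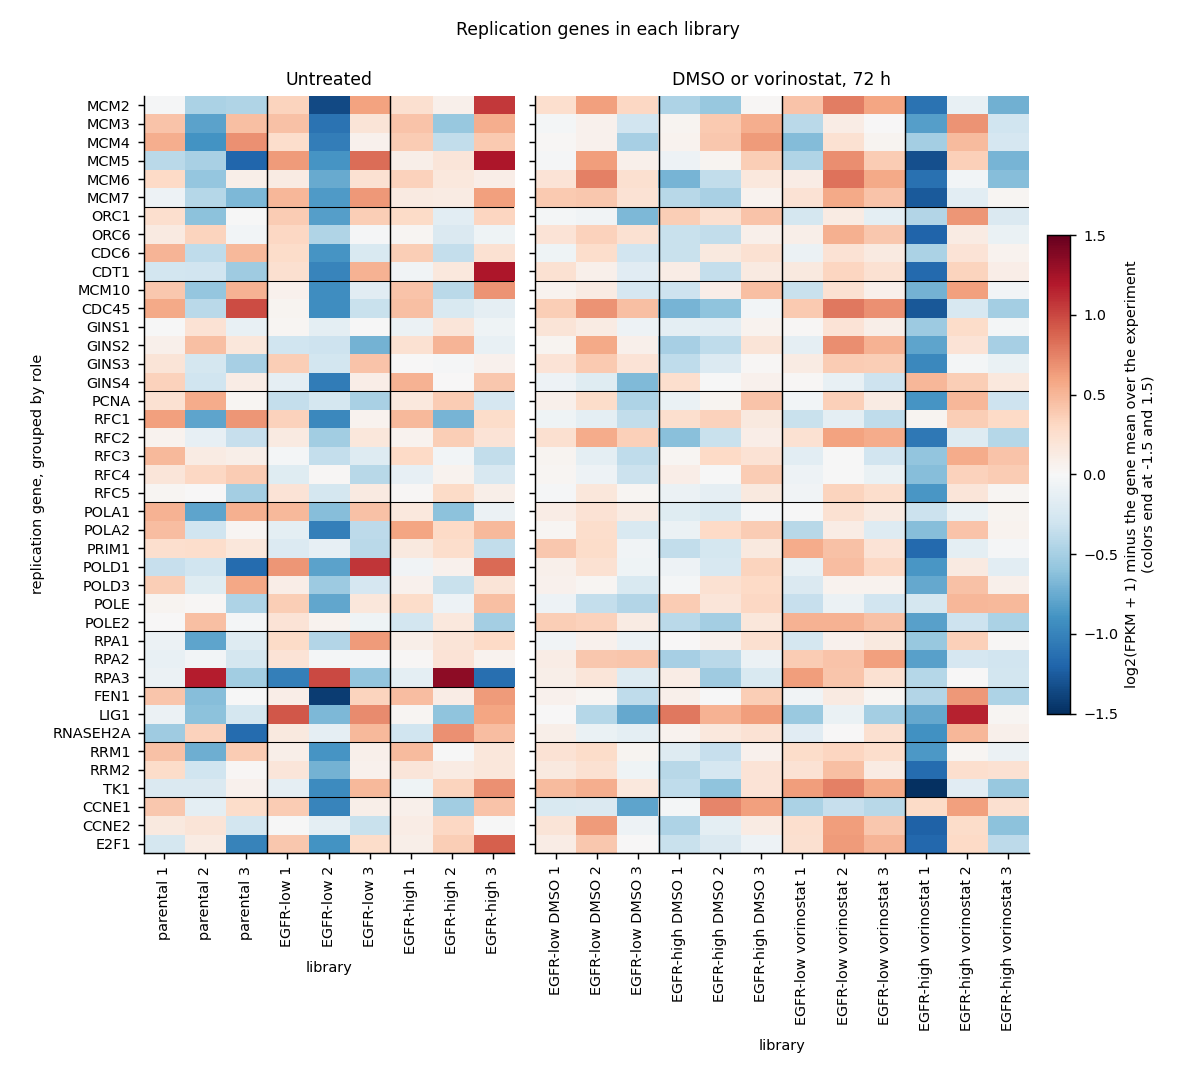
Level of each of the 41 members (rows, grouped by role) in each of the 21 libraries (columns, grouped by population and treatment), as log2(FPKM + 1) minus the member's mean within its experiment. EGFR-low library 2 of the untreated experiment and EGFR-high vorinostat library 1 stand out as columns of low values, with the lowest value of the group for 34 and 38 of the 41 members.

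Several libraries stood apart before any comparison. EGFR, on which the cells were sorted, lay at 26.5 to 60.6 FPKM in untreated EGFR-low cells and at 161 to 269 FPKM in EGFR-high cells. In the second experiment it lay at 16.1 to 43.3 FPKM in EGFR-low and at 83.3 to 207 FPKM in EGFR-high libraries. The EGFR-high library 3 with DMSO held 54 genes typical of EGFR-low cells at a median of 28.9% of their EGFR-low level, and the EGFR-low library 1 with DMSO held 108 genes typical of EGFR-high cells at 22.8%. EGFR-low libraries of the second experiment correlated at 0.754 to 0.867 with the untreated EGFR-low libraries and at 0.764 to 0.876 with the untreated EGFR-high libraries, and EGFR-high libraries at 0.889 to 0.957 with untreated EGFR-high libraries (11118 genes, log2 scale, descriptive). Whether the EGFR-low cells of both experiments were the same sorted population was not tested, and their values are compared only within an experiment. All 6 epithelial markers were at 1 FPKM or more in every group. Of 4 markers of the lung adenocarcinoma lineage, the sum was at most 0.361 FPKM in every untreated library, with NKX2-1 at or near 0, against 24.3 to 54.1 FPKM in the EGFR-low libraries of the second experiment. NKX2-1, the lineage's defining transcription factor, was at 11.1 FPKM in EGFR-high DMSO library 3 and at most 0.588 FPKM in the other EGFR-high libraries. Fibroblast, leukocyte and endothelial markers summed to at most 5.88, 10.4 and 8.30 FPKM. The part of these features in the results below was not tested.

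The promoters of the members were also examined, and their part in the levels was not tested. RefSeq (GRCh38.p14) entries were matched for 34 of the 41 members. An E2F site was searched as TTTGGCGC, TTTCCCGC, TTTCGCGC or TTTGCCGC on either strand within 250 bases before the transcription start, and it was found in 12 of 34 members (35.3%) against 928 of 27305 genes (3.40%). An E2F site was found in 11 of 36 further replication genes with an entry (30.6%) and 2 of 17 mitosis genes (11.8%). The CCAAT motif, searched on both strands, was present in 64.7% of members and 37.0% of all genes. It was present in 18 of the 36 further replication genes and in 15 of the 17 mitosis genes (88.2%), so it was not particular to the members. The CHR motif TTTGAA, an element known from mitotic promoters, was present in 2.94% of members, in 16.1% of all genes and in 58.8% of the 17 mitosis genes with an entry. Matches are a description of letters and not of bound factors. The 160 bases before the start are shown for 2 members with E2F sites that were higher in EGFR-low cells under vorinostat (MCM6 and E2F1) and for 2 with E2F sites that were lower in EGFR-low cells under DMSO (POLE and LIG1), 5′ to 3′ along the gene's strand, with the E2F sites in capitals.
MCM6 (chr2:135876444-135876603, minus strand): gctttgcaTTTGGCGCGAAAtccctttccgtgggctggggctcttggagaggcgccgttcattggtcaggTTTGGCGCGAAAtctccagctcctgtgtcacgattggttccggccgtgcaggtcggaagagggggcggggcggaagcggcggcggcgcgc
E2F1 (chr20:33686386-33686545, minus strand): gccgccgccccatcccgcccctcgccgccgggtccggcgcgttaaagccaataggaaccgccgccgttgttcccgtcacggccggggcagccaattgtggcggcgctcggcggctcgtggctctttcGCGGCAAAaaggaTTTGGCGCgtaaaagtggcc
POLE (chr12:132687343-132687502, minus strand): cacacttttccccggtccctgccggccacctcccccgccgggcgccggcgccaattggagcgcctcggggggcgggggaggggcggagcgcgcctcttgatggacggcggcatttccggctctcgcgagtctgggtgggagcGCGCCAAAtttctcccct
LIG1 (chr19:48170345-48170504, minus strand): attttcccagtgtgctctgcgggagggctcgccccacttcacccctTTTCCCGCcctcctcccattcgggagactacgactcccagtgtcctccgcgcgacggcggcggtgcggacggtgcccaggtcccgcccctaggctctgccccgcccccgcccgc
MCM6 carried 4 sites as 2 pairs, in which a site on the gene's strand overlapped one on the opposite strand, the nearer pair spanning -90 to -79 from the start. E2F1 carried its own pair of sites at -33 to -26 and -20 to -13, POLE 1 site at -18 to -11 and LIG1 1 site at -114 to -107. The other members with a site were CDT1, GINS2, MCM3, MCM7, PCNA, POLA1, POLA2 and RFC3.

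The first comparison asked whether untreated EGFR-low cells differ from EGFR-high cells in replication gene RNA. No member was called in either direction at a limma adjusted p of 0.05 (Benjamini-Hochberg over 11305 genes), where 1.62% of all genes were called higher and 2.19% lower. Of the 41 members 35 lay lower in EGFR-low cells, and the median of their log2 fold changes was -0.28 against -0.03 over all genes. Without EGFR-low library 2 it was -0.03. An unadjusted p under 0.05 was found for 2 members and 1529 of all genes. In bulk RNA, fewer cells in S phase and less RNA per cell cannot be told apart. By role, the medians ran from -0.51 for helicase activation and -0.46 for nucleotide supply to -0.04 for single-strand binding.

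POLA2, the regulatory subunit of the polymerase alpha and primase complex, was at 15.7, 8.04 and 13.0 FPKM in EGFR-low cells and at 26.7, 21.7 and 24.7 FPKM in EGFR-high cells. Every EGFR-low library lay below every EGFR-high library. The log2 fold change was -0.98 (standard error, SE, of 0.29 and limma adjusted p of 0.109), and the adjusted p of limma became 0.0126 once the replicate number entered as a block. GINS2, a subunit of the GINS complex, was at 22.5, 22.1 and 16.6 FPKM against 32.8, 39.8 and 25.6 FPKM, again without overlap. Its log2 fold change was -0.65 (SE 0.25, limma adjusted p = 0.259), with a limma adjusted p of 0.048 under the block. The block thus gave 2 members called lower where the fit without it gave 0, and both were named after their values were seen. Over all genes, 965 were called in either direction with the block and 431 without it. PCNA, the sliding clamp, was at 141, 150.0 and 128 FPKM in EGFR-low and at 201, 235 and 150.4 FPKM in EGFR-high libraries. Its groups were separated only by the gap between 150.0 and 150.4 FPKM, and the log2 fold change was -0.46 (limma adjusted p = 0.53), with an exact permutation p of 0.1 (two-sided), which is the lowest possible with 3 libraries against 3. CCNE2, a cyclin E that drives entry into S phase, was the fourth member without overlap, at 5.17 to 6.73 FPKM against 6.77 to 8.68 FPKM. No overlap in the downward direction was seen in 11.2% of all genes and in the upward direction in 9.39%, against 4 and 0 members.

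MCM2, a subunit of the helicase ring, was at 16.5, 4.41 and 20.0 FPKM in EGFR-low cells and at 15.4, 13.6 and 27.8 FPKM in EGFR-high cells. The groups overlapped, and 1 library decided the difference. The log2 fold change of MCM2 was -0.60 (limma adjusted p = 0.709) with all libraries and 0.01 without EGFR-low library 2. E2F1 was lowest in the same library, at 7.59, 2.47 and 6.84 FPKM against 5.88, 7.35 and 11.0 FPKM, with a log2 fold change of -0.52. RRM2, the regulated subunit of ribonucleotide reductase, was at 85.8, 45.8 and 79.1 FPKM in EGFR-low cells and between 82.6 and 85.8 FPKM in EGFR-high cells. CDC6, the licensing factor, was at 82.8, 36.5 and 58.3 FPKM against 88.7, 53.1 and 80.3 FPKM. Log2 fold changes of RRM2 and CDC6 were -0.32 and -0.36, and neither was called.

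**Figure D2:**
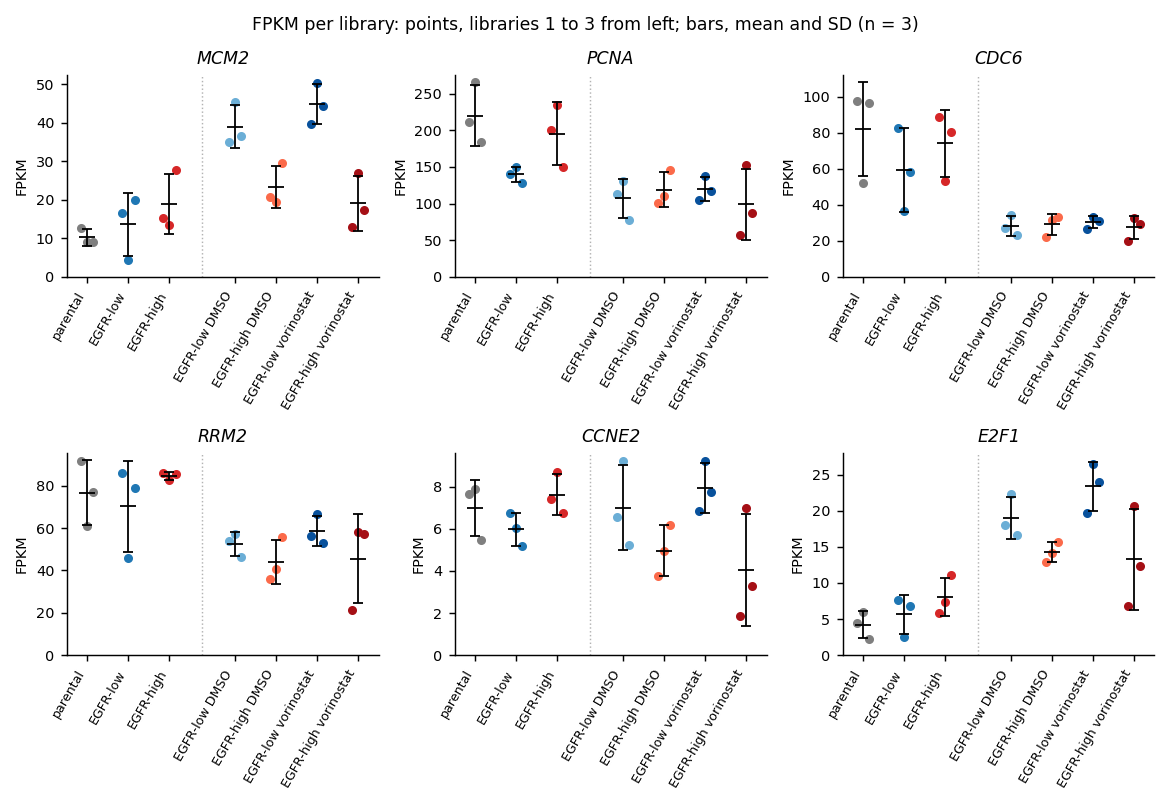
FPKM (linear axes from 0) of MCM2, PCNA, CDC6, RRM2, CCNE2 and E2F1 in every library, with a point per library and bars for the mean and SD of each group (n = 3), for the untreated experiment on the left of each panel and the treated one on the right. MCM2 separates EGFR-low from EGFR-high libraries with DMSO (35.1 to 45.4 against 19.3 to 29.5 FPKM) and overlaps in untreated cells.

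The libraries numbered 2 of the untreated experiment stood apart in all 3 groups. In EGFR-low library 2, 35 of the 41 members lay below the mean of the other libraries of the group, with a median difference of -0.91 on the log2 scale, against 27 members in EGFR-high and 23 in parental cells. In all 3 groups, 21 members were below and 6 above. RPA3, the smallest subunit of the single-strand binding complex, went the other way, at 199 FPKM against 48.6 and 65.8 FPKM in EGFR-low, at 254 against 90.4 and 44.9 FPKM in EGFR-high, and at 227 against 94.1 and 69.2 FPKM in parental cells. Across the 41 members the difference of the number 2 libraries correlated with log2 transcript length at -0.41, -0.50 and -0.55 in parental, EGFR-low and EGFR-high cells, which is a description over genes that share a library. Without the number 2 libraries the median of the members was -0.12 and none was called. With GC content and length trends removed, POLA2 was called lower (limma adjusted p = 0.0376), as were 463 of the 11305 genes tested. With the replicate block in addition, POLA2, GINS2, GINS4, FEN1, MCM10 and PCNA were called lower, which makes 6 members. In that fit 1186 of the 11305 genes were called lower. The part of transcript length and GC content in the difference between the populations was not otherwise tested.

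**Figure D3:**
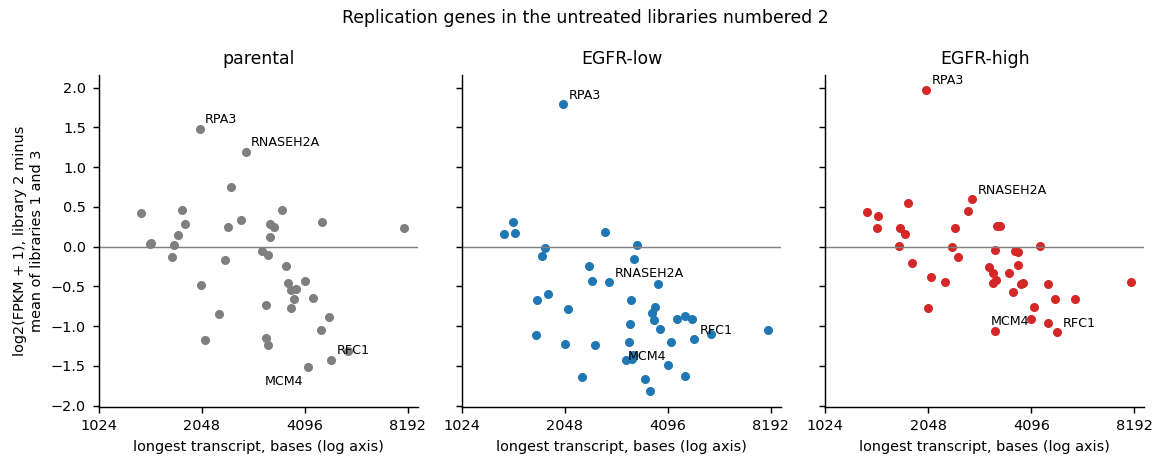
Difference (log2 scale) between library 2 and the mean of the other libraries of its untreated group, for each of the 41 members, against log2 transcript length, with 1 panel per group. RPA3 lies highest in every panel (1.48, 1.79 and 1.98), and the correlation is negative in each (-0.41, -0.50 and -0.55).

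The sorted populations were also compared with parental cells. Log2 fold changes of the members ran from -0.79 to 0.91 in EGFR-low cells and from -0.39 to 1.19 in EGFR-high cells. In EGFR-low cells no member was called, where 0.831% of all genes were higher and 0.77% lower. Of the members, 25 lay lower and 16 higher, with a median of -0.16 against 0.06 over all genes, and 2 had an unadjusted p under 0.05 (1668 of all genes). PCNA was at 184 to 265 FPKM in parental cells, all above the 128 to 150.0 FPKM of EGFR-low cells. Without the number 2 libraries 2 members were called higher, both chosen after their values were seen. They were POLD1, the catalytic subunit of polymerase delta (log2 fold change 1.61, limma adjusted p = 0.0459), and LIG1, the ligase of the lagging strand (1.00, 0.0459). In that fit 929 of the 11305 genes tested were called in either direction, against 181 with all libraries. In EGFR-high cells no member was called either, where 0.0619% of all genes were higher and 0.00885% lower. There 26 members lay higher and 15 lower, with a median of 0.19 against 0.07 over all genes, and 1 had an unadjusted p under 0.05 (1093 of all genes). That member was MCM5, a helicase subunit, at 35.4, 38.0 and 78.8 FPKM in EGFR-high cells and 25.0, 23.5 and 14.1 FPKM in parental cells (limma adjusted p = 0.507). The comparisons with parental cells share the parental libraries and are not independent of each other.

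In the second experiment the populations differed in far more genes. With DMSO, 31.1% of all 12236 genes tested were called higher and 20.7% lower in EGFR-low cells, and of the 41 members 5 were called higher and 4 lower by limma. The share of members called was thus below the share of all genes in both directions. Their median log2 fold change was 0.08 against 0.12 over all genes, and 23 lay higher. It was 0.03 without EGFR-low library 2 or EGFR-high library 2, 0.05 without EGFR-high library 1, 0.19 without EGFR-low library 3 and 0.24 without EGFR-high library 3, against 0.10 to 0.14 over all genes in these fits. The split over all genes moved from 3807 higher and 2527 lower to 3219 and 3183 with median-of-ratios scaling and to 3352 and 3024 with quantile normalization, which lowered the median of all genes from 0.12 to 0.01 and 0.04. Members called were then 4 higher and 6 lower, with medians of -0.04 and -0.03.

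The members higher in EGFR-low cells with DMSO belonged to the helicase, the clamp loader, polymerase epsilon and single-strand binding. CDC45, which joins the MCM ring to form the active helicase, was at 16.0, 20.1 and 17.0 FPKM in EGFR-low and at 7.15, 7.73 and 11.8 FPKM in EGFR-high libraries. Its groups did not overlap, and the log2 fold change was 0.94 (SE 0.25, limma adjusted p = 0.00898). MCM2 was at 35.1, 45.4 and 36.6 FPKM against 20.9, 19.3 and 29.5 FPKM, with a log2 fold change of 0.74 (SE 0.23, limma adjusted p = 0.0202). RFC2, a subunit of the clamp loader, was at 40.2, 50.3 and 43.8 FPKM against 21.6, 26.8 and 36.5 FPKM (0.67, SE 0.23, limma adjusted p = 0.0307). In each of these genes the highest EGFR-high value was that of library 3, the library with EGFR-low genes. That library held the highest value of its group for 34 of the members. Among them were MCM3, MCM4 and PCNA, which lay lower in EGFR-low cells (log2 fold changes of -0.41, -0.51 and -0.16, not called). The cause of its high values was not tested. RPA2, the middle subunit of the single-strand binding complex, was at 21.4, 26.4 and 26.7 FPKM against 13.7, 14.7 and 18.5 FPKM (0.64, SE 0.17, limma adjusted p = 0.00905). POLE2, an accessory subunit of polymerase epsilon, was at 5.20, 5.11 and 4.23 FPKM against 2.61, 2.37 and 4.37 FPKM. It was called (0.53, SE 0.19, limma adjusted p = 0.0345) although library 3 of the EGFR-high group lay above library 3 of the EGFR-low group. POLE2 was not called after median-of-ratios scaling (limma adjusted p = 0.0537), quantile normalization (0.0632) or with no filter (0.0542). Nor was it called with only the compared groups (0.0541) or with GC and length trends removed and the replicate block (0.0555). CDC45 and RPA2 kept their calls whichever library was left out. MCM2 lost its call without EGFR-low library 2, EGFR-high library 1 or EGFR-high library 2 (limma adjusted p = 0.0667 to 0.0802), and so did RFC2 (0.0797 to 0.125) and POLE2 (0.0979 to 0.136). RFC2 also lost it without EGFR-low library 3 (0.0687), and POLE2 without EGFR-low library 1 (0.0865).

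The members lower in EGFR-low cells with DMSO were a ligase, a cyclin, a polymerase and the large loader subunit. LIG1 was at 14.9, 10.8 and 8.28 FPKM in EGFR-low and at 26.3, 21.7 and 23.3 FPKM in EGFR-high libraries, which did not overlap. Its log2 fold change was -1.04 (SE 0.38, limma adjusted p = 0.0362), the largest in size of the 41. CCNE1, the other cyclin E, was at 6.02, 6.07 and 3.76 FPKM against 7.07, 12.6 and 11.6 FPKM, with a log2 fold change of -0.85 (SE 0.22, limma adjusted p = 0.00659). CCNE2, its paralog, lay in the other direction at 6.54, 9.21 and 5.24 FPKM against 3.76, 4.95 and 6.17 FPKM, with overlapping groups and a log2 fold change of 0.41 that was not called. POLE, the catalytic subunit of polymerase epsilon, was at 5.48, 4.31 and 4.02 FPKM against 7.91, 6.74 and 7.46 FPKM (-0.58, SE 0.20, limma adjusted p = 0.0287). The catalytic and the accessory subunit POLE2 of 1 polymerase were thus called in opposite directions, though neither call held under every alternative. RFC1, the largest subunit of the clamp loader, was at 29.3, 27.4 and 23.4 FPKM against 36.4, 39.0 and 34.0 FPKM (-0.44, SE 0.13, limma adjusted p = 0.0133), opposite in direction to RFC2. With every library scaled to the same sum LIG1, POLE and RFC1 were not called (limma adjusted p = 0.0537, 0.065 and 0.0598), and CCNE1 remained the 1 member called lower. CCNE1 also kept its call whichever library was left out. LIG1 lost its call without any library other than EGFR-low library 1 (limma adjusted p = 0.0669 to 0.128), POLE without EGFR-low library 2 or 3 or EGFR-high library 1 or 3 (0.0595 to 0.101), and RFC1 without EGFR-low library 3 (0.067) or EGFR-high library 2 (0.0529).

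Of the genes followed in every comparison of the populations, PCNA, CDC6, RRM2 and E2F1 were not called with DMSO. E2F1 was at 18.0, 22.3 and 16.6 FPKM in EGFR-low and at 12.9, 14.1 and 15.7 FPKM in EGFR-high libraries, without overlap but with a limma adjusted p of 0.289. PCNA was at 114, 130.2 and 78.1 FPKM against 101, 111 and 146 FPKM, and its log2 fold change of -0.16 became 0.05 without EGFR-low library 3. Without the EGFR-low library 1 and the EGFR-high library 3, which lay between the populations, 6 members were called higher, MCM6 among them at 1.03, and 3 lower, since LIG1 had a limma adjusted p of 0.0502. In the same fit 30.2% of all genes were called higher and 19.3% lower, and the median was 0.21 for the members and 0.15 for all genes.

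With vorinostat in both populations, 15 members were called higher and 3 lower in EGFR-low cells, among 36.2% of all genes called higher and 22.8% lower. The share of members called higher was 15 of 41, close to that of all genes. Their median log2 fold change was 0.40 against 0.16 over all genes, and 31 of 41 lay higher. Without EGFR-high library 1 the median of the members was 0.05 against 0.10 over all genes, and without EGFR-high library 2 it was 0.73 against 0.18. With median-of-ratios scaling the split over all genes moved from 4427 higher and 2795 lower to 3656 and 3584, and with quantile normalization to 3869 and 3338, and the median of all genes became 0.01 and 0.05. Members called were 14 higher and 4 lower under both, with medians of 0.24 and 0.29. All 5 members called higher with DMSO were among the 15 called higher with vorinostat (33.3% of these), and of the 4 called lower with DMSO, CCNE1 and RFC1 were among the 3 called lower. No library is shared between these comparisons, but they use the same sorted populations and 1 shared estimate of the spread. They are therefore not independent, and the same overlap over all genes is not given.

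**Figure D4:**
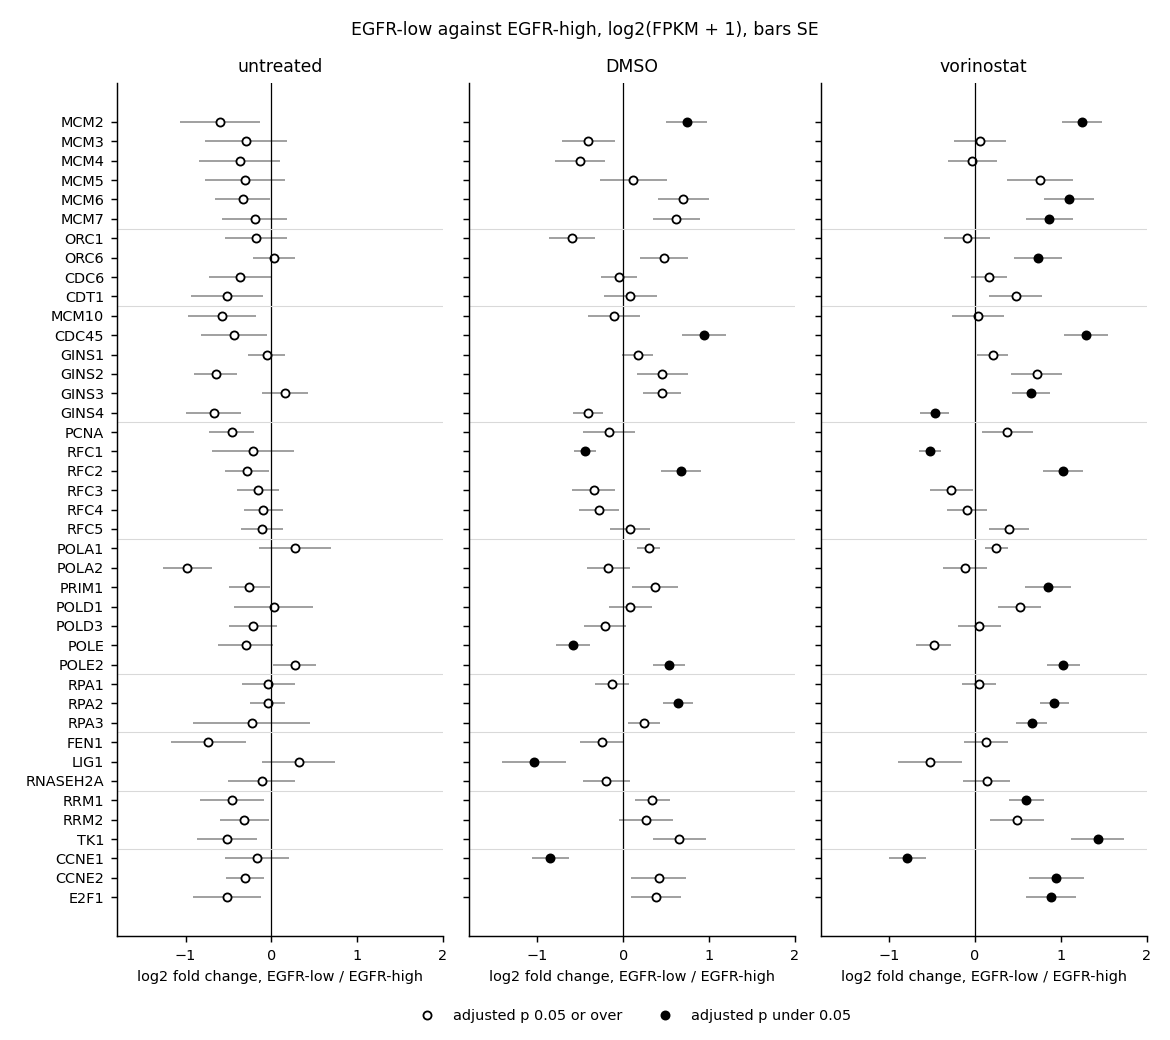
Log2 fold change of EGFR-low over EGFR-high cells for each of the 41 members (rows), in panels for untreated, DMSO and vorinostat libraries, with bars of 1 SE. Filled points were called at a limma adjusted p of 0.05, which were 0 members in untreated cells, 9 with DMSO and 18 with vorinostat.

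The largest log2 fold changes of single members were those of TK1, CDC45 and MCM2. TK1, which salvages thymidine, was at 53.8, 59.1 and 51.7 FPKM in EGFR-low and at 10.7, 30.7 and 22.9 FPKM in EGFR-high libraries. Its log2 fold change was 1.43 (SE 0.31, limma adjusted p = 0.00199). CDC45 was at 16.3, 21.9 and 20.2 FPKM against 4.45, 10.2 and 8.30 FPKM (1.30, limma adjusted p = 0.00104). In both genes library 1 of the EGFR-high group was the lowest and the groups did not overlap. MCM2 was at 39.8, 50.3 and 44.5 FPKM against 13.0, 26.9 and 17.3 FPKM (1.24, limma adjusted p = 0.000782). MCM6, another subunit of the ring and the carrier of the paired E2F sites shown above, was at 30.2, 49.7 and 41.7 FPKM against 12.3, 27.0 and 17.6 FPKM (1.10, limma adjusted p = 0.00736). Of the 6 helicase subunits 3 were called higher (MCM2, MCM6 and MCM7), and the role's median was 0.81. RFC2 was at 39.7, 52.2 and 50.5 FPKM against 15.6, 29.5 and 25.0 FPKM (1.03, limma adjusted p = 0.00263). POLE2 was at 5.87, 5.89 and 5.50 FPKM against 1.72, 2.85 and 2.46 FPKM (1.03, limma adjusted p = 0.000705), and its groups no longer overlapped. These 6 genes kept their calls whichever library was left out.

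Of the 3 regulators of S phase entry 2 were called higher and 1 lower, with a median of 0.89. E2F1 was at 19.7, 26.5 and 23.9 FPKM in EGFR-low and at 6.75, 20.7 and 12.3 FPKM in EGFR-high libraries, which overlapped. Its log2 fold change was 0.89 (SE 0.29, limma adjusted p = 0.0199). CCNE2 was at 6.84, 9.19 and 7.75 FPKM against 1.84, 6.99 and 3.30 FPKM (0.95, SE 0.32, limma adjusted p = 0.0249), while CCNE1 was lower at 4.91, 5.47 and 5.18 FPKM against 9.05, 11.6 and 8.69 FPKM (-0.79, SE 0.22, limma adjusted p = 0.00805). The paralogs of cyclin E were therefore called in opposite directions. RFC1 (-0.53, limma adjusted p = 0.00418) and GINS4, a subunit of the GINS complex (-0.47, limma adjusted p = 0.0332), were the other members called lower. PCNA, CDC6 and RRM2 were not called, with log2 fold changes of 0.38, 0.16 and 0.49. The remaining members called higher were RPA2, MCM7, PRIM1 (the primase), ORC6 (an origin recognition subunit), RPA3, GINS3 and RRM1 (the large subunit of ribonucleotide reductase). RPA2 and RPA3 kept their calls whichever single library was left out. ORC6, whose groups overlapped, lost its call without EGFR-low library 2 or 3 or EGFR-high library 1 (limma adjusted p = 0.1 to 0.125), with no filter (0.0721), under each of the 3 other scalings (0.054 to 0.0719), with GC and length trends removed (0.0681) and with only the compared groups (0.105). GINS3 lost it without the same libraries (0.0522 to 0.0702), with the trends removed (0.059) and with only the compared groups (0.0686). RRM1 lost it without any EGFR-low library or EGFR-high library 1 (0.0506 to 0.064), with equal sums (0.0549), with the trends removed (0.0716) and with only the compared groups (0.0659). MCM7 lost it without EGFR-low library 2 (0.062) or with only the compared groups (0.0539), and PRIM1 without EGFR-low library 1 (0.0542). CCNE1 and RFC1 kept their calls whichever library was left out. E2F1 lost its call without EGFR-low library 2 or 3 or EGFR-high library 1 (limma adjusted p = 0.053 to 0.0675) and with only the compared groups (0.0636). CCNE2 lost it without the same libraries or EGFR-high library 3 (0.0556 to 0.0924), with the trends removed (0.0533) and with only the compared groups (0.0544). GINS4 lost it without EGFR-low library 2 or 3 or EGFR-high library 1 or 2 (0.0695 to 0.121). PCNA was called without EGFR-high library 2 (0.0267). With a replicate block, GINS2 (limma adjusted p = 0.0186) and MCM5 (0.0297) were called higher as well.

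The EGFR-high vorinostat library 1 had the lowest value of its group for 38 of the 41 members. Without the vorinostat libraries numbered 1 the members called higher were 11, since CCNE2, PRIM1, RPA3 and RRM1 were lost, and those called lower were 6, since LIG1, POLE, RFC3 and RFC4 were gained and GINS4 was lost. In the same fit 35.4% of all genes were called higher and 25.1% lower. The median of the members was then 0.14 against 0.12 over all genes. Of the 15 members called higher 12 had a promoter entry and 3 of these an E2F site (MCM6, MCM7 and E2F1). Of the 3 called lower 2 had an entry and 0 a site, and of the 23 not called 20 had an entry and 9 a site. With DMSO, 0 of 4 members called higher and 2 of 4 called lower (POLE and LIG1) had a site among those with an entry, and so had 10 of 26 not called.

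Vorinostat against DMSO in EGFR-low cells gave no called member, and 0% of all genes were called higher and 0% lower by limma, with 115 of all genes and 0 members at an unadjusted p under 0.05. Of the 41 members 36 lay higher with vorinostat, with a median log2 fold change of 0.10 against -0.03 over all genes. Single libraries decided this median, which was -0.0031 without DMSO library 3 (where 40 members lay below the DMSO mean), 0.01 without vorinostat library 2 (all 41 above it) and 0.18 without vorinostat library 1 (26 below it). POLE2, TK1 and RPA3 lay above the DMSO libraries without overlap, which 3.78% of all genes did and 5.69% did in the other direction. RPA3 was at 86.2, 74.3 and 65.3 FPKM with vorinostat and at 59.1, 63.2 and 48.5 FPKM with DMSO. Its log2 fold change of 0.40 was the largest of the members, named after its value was seen. The log2 fold changes of the followed genes were 0.29 for E2F1, 0.20 for MCM2, 0.18 for PCNA and for CCNE2, 0.16 for RRM2 and 0.12 for CDC6.

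Vorinostat against DMSO in EGFR-high cells gave no called member either, and 0% of all genes were called higher and 0% lower, with 409 of all genes and 0 members at an unadjusted p under 0.05. There 39 of the 41 members lay lower, with a median of -0.21 against -0.06 over all genes. This median depended on single libraries. Without DMSO library 3, which had 37 members above the DMSO mean, it was -0.08 against -0.02 over all genes. Library 1 with vorinostat had 40 members below the DMSO mean (median difference -0.80), library 2 had 40 above it (0.23), and library 3 had 17 above and 24 below (-0.09). PCNA showed the spread, at 57.8, 153 and 86.9 FPKM with vorinostat against 101, 111 and 146 FPKM with DMSO. Its log2 fold change was -0.36, beside -0.35 for CCNE2, -0.31 for MCM2, -0.22 for E2F1, -0.09 for CDC6 and -0.07 for RRM2, all at a limma adjusted p of 0.94 or more. Without vorinostat library 1 the median of the members was 0.08. CDKN1A, an inhibitor of cyclin-dependent kinases often raised by histone deacetylase inhibitors, was at 21.7 FPKM in that library and at 1.79 and 3.25 FPKM in the others, against 3.62, 3.17 and 8.93 FPKM with DMSO. In EGFR-low cells CDKN1A was at 27.6, 15.3 and 17.5 FPKM with vorinostat and 18.6, 17.5 and 20.1 FPKM with DMSO. The log2 fold changes of CDKN1A were 0.16 and 0.06, and neither was called.

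The test of the difference between the responses to vorinostat called no member, and 0% of all genes were called higher and 0% lower, with 0 members and 215 of all genes at an unadjusted p under 0.05. The response of EGFR-low cells was the more positive for 38 of 41 members, with a median of 0.32 against 0.04 over all genes. By role the medians ran from 0.17 for helicase activation to 0.51 for the cyclins E and E2F1. Without EGFR-high vorinostat library 1 the median was 0.02, and without the vorinostat libraries numbered 1 and both DMSO libraries between the populations it was -0.01.

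The other genes of the pathway gave the frame for these counts. Of 43 further replication genes, 0 were called in untreated cells, 11 higher and 6 lower with DMSO, and 18 higher and 3 lower with vorinostat, with medians of -0.11, 0.14 and 0.40. Beside these and the counts below, 31.1% of all genes were called higher and 20.7% lower with DMSO, and 36.2% and 22.8% with vorinostat. POLE4, a small subunit of polymerase epsilon, had the largest difference with DMSO, at 18.2, 22.5 and 24.3 FPKM in EGFR-low and 7.72, 7.32 and 10.4 FPKM in EGFR-high libraries (log2 fold change 1.26, limma adjusted p = 0.00166). Of the 28 regulators of E2F, RB and G1 kinases, 25 were tested in untreated cells and 1 was called lower. It was TFDP2, a dimer partner of the E2F proteins, at 6.92, 4.45 and 4.07 FPKM in EGFR-low and 12.8, 11.3 and 11.2 FPKM in EGFR-high libraries (-1.08, limma adjusted p = 0.0241). In the second experiment TFDP2 was called in the other direction, with DMSO at 18.9, 29.1 and 28.2 FPKM in EGFR-low and 7.58, 7.29 and 11.6 FPKM in EGFR-high libraries (1.43, limma adjusted p = 0.000327) and with vorinostat at 24.6, 23.6 and 25.8 FPKM in EGFR-low and 6.30, 6.18 and 7.72 FPKM in EGFR-high libraries (1.74, limma adjusted p = 4.4e-05). The DMSO values of TFDP2 were chosen after they were seen. Of the 26 regulators tested in the second experiment, 8 were called higher and 6 lower with DMSO, and 9 and 5 with vorinostat. CDKN1A was among those higher with DMSO (1.77, limma adjusted p = 0.0305) and with vorinostat (1.67, 0.0351). Of the 22 mitosis genes, 0 were called in untreated cells, 1 higher and 1 lower with DMSO, and 6 higher with vorinostat. AURKB, a mitotic kinase, had the largest of these differences, at 51.5, 36.4 and 38.3 FPKM against 17.7, 13.0 and 27.8 FPKM with DMSO (1.12, limma adjusted p = 0.00972) and at 65.0, 44.7 and 48.8 FPKM against 10.6, 19.5 and 24.1 FPKM with vorinostat (1.55, 0.00108). For vorinostat against DMSO no gene of these lists was called in either population. All 22 mitosis genes lay higher with vorinostat in EGFR-low cells (median 0.21) and 19 lay lower in EGFR-high cells (median -0.19), the latter with the same library 1. Over all 12236 genes, 5194 lay higher in EGFR-low cells and 7607 lower in EGFR-high cells. How far single libraries decided the medians of the mitosis genes is not given.

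Across libraries the members varied unequally. In untreated cells MCM2 had the widest range, 6.30-fold between its lowest and highest library, and GINS1, a GINS subunit, the narrowest at 1.31-fold. In the second experiment the widest was TK1 at 5.52-fold and the narrowest POLA1, the catalytic subunit of polymerase alpha, at 1.54-fold. The levels of the experiments came from tables that were normalized separately and were not tested against each other.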

How the data were processed

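The 41 members and the pathway lists were chosen with earlier results of these data known. RNA of PC-9 cells was extracted (RNeasy) and sequenced from poly(A)-selected libraries (Roche Kapa mRNA Hyper Prep). The submitters' processing notes name STAR 2.5.1b, Cufflinks 2.2.1, DESeq2 1.10.1 and hg19. The authors deposited 1 table per experiment, and the deposited values were treated as FPKM made with Cufflinks, although the deposit calls them counts, because they are not whole numbers and sum to 467897 to 592942 per library. No read totals are given. If the smallest common step of FPKM times length is taken as 1 fragment, the member with the fewest fragments in a library had 129 to 896, a rough estimate only, and the depth was otherwise unknown. Genes called typical of a population had over 5 FPKM in each of its libraries and under 0.5 FPKM in the other population's libraries apart from the one described.

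From these values, linear models of log2(FPKM + 1) were made by limma 3.58.1 (R 4.3.3, eBayes with trend) for genes that reached 1 FPKM in 3 libraries or more (11305 untreated, 12236 in the second experiment), with 1 mean per group, no replicate block, and the Benjamini-Hochberg adjustment over all genes within each comparison. A gene was called at an adjusted p under 0.05. The experiments were fitted separately. Single genes were also compared by exact two-sided permutation, which cannot go below a p of 0.1 here. The code was tested on simulated data.

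Log2 fold changes are given for the called members with the largest change (up to 6 in each direction), for MCM2, PCNA, CDC6, RRM2, CCNE2 and E2F1 between populations and between treatments, for the called gene with the largest change of each pathway list, and for CDKN1A; others are named as chosen after their values were seen or given in ranges. The study's methods call replicates independent experiments done at different times, and the labels tie no number to a shared day. Same-numbered libraries deviated together in every pair for untreated EGFR-low against EGFR-high cells (r = 0.34, 0.73 and 0.69), for the populations under vorinostat (0.35, 0.35 and 0.16) and for vorinostat against DMSO in EGFR-low cells (0.27, 0.30 and 0.33), and were taken as paired there. Libraries of unlike number also correlated, at up to 0.62 for numbers 1 and 3 of the untreated pair. Under vorinostat this reached 0.25 for number 3. For untreated number 1 and vorinostat number 3 these values exceeded the same-number correlation, so the pairing is uncertain. The calls of POLA2 and GINS2 under the block depend on it. The alternatives were other pseudocounts, filters and scalings, only the compared groups, the replicate block, removal of GC and length trends (known for 10718 and 11608 of the genes tested), and leaving out libraries, of which leaving out the number 2 libraries, the vorinostat libraries numbered 1 and the libraries between the populations was chosen after seeing the data. Promoters came from RefSeq (GRCh38.p14) and no coordinate of the deposited build was used.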

Additional observations from a re-analysis of the deposited data

How the results depend on the processing

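Read totals are not given, so no limit from counting was set, and precision rests on 3 libraries per group. The direction of each member called between the populations and given with its log2 fold change was the same under every alternative run. For vorinostat against DMSO no member was called under any alternative. Where a value moved, the cause was not tested. Fits that leave out 1 library compare 2 libraries with 3 and pool the spread over all groups.

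In untreated EGFR-low against EGFR-high cells, 0 members were called lower, against 2 with the replicate block, 1 with GC and length trends removed and 6 with both. All genes called were 431, against 660 with no filter, 206 with a filter of 5 FPKM, 965 with the block, 916 with the trends removed and 2404 with both. In EGFR-low against parental cells, 5 members were called lower with both and 2 higher without the number 2 libraries, and all genes called moved from 181 to 331, 82, 525, 491 and 2204 in the same order, 107 with only the compared groups and 929 without the number 2 libraries. In EGFR-high against parental cells they moved from 8 to 15 with no filter, 3 at 5 FPKM, 61 with both, 2 with only the compared groups and 4 without the number 2 libraries. With the block alone no member was called in the comparisons with parental cells, where the numbers were not taken as paired.

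With DMSO, members called higher moved from 5 to 3 with no filter and 10 with only the compared groups. Members called lower moved from 4 to 1 with equal sums and 7 with the block and the trends removed. The block alone gave 7 members higher and 5 lower, although the pairing did not hold there. Over all genes, those called lower moved from 2527 to 2096 with equal sums and 3264 with the block and the trends removed. With vorinostat, members called higher moved from 15 to 9 with only the compared groups, and those called lower from 3 to 6 without the vorinostat libraries numbered 1. For the populations with DMSO or vorinostat, counts over all genes are not given for no filter, only the compared groups or the block alone. Whether the members moved apart from all genes in those fits was therefore not shown. With no filter 1 gene was called for vorinostat against DMSO in EGFR-low cells and 1 for the difference of the responses. The block changed no other call of members in the comparisons taken as paired.

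Leaving out 1 library at a time, all genes called ran from 205 to 337 (untreated EGFR-low against EGFR-high), 67 to 252 (EGFR-low against parental) and 2 to 8 (EGFR-high against parental). The median of the members ran from -0.44 to -0.03, from -0.21 to 0.12 and from 0.08 to 0.31 in these comparisons. Members called with DMSO ran from 2 to 7 higher and 1 to 5 lower, while all genes called ran from 4925 to 6194 (6334 with all libraries) and the median of the members from 0.03 to 0.24. With vorinostat they ran from 9 to 21 higher and 2 to 6 lower, all genes from 6250 to 7524 (7222) and the median from 0.05 to 0.73. For vorinostat against DMSO the median ran from -0.0031 to 0.18 in EGFR-low and from -0.44 to 0.08 in EGFR-high cells. The median of the difference of the responses ran from 0.0161 (without EGFR-high vorinostat library 1) to 0.534, and was -0.00855 without the vorinostat libraries numbered 1 and the DMSO libraries between the populations.

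The reversals were of log2 fold changes that were not called. Leaving out 1 library at a time, MCM2 in untreated cells ran from -0.968 to 0.00975 (without EGFR-low library 2). With DMSO, PCNA ran from -0.316 to 0.0485 and CDC6 from -0.221 to 0.0823, both highest without EGFR-low library 3, and CDC6 was also above 0 without EGFR-high library 2 or 3. CDC6 was 0.0211 with equal sums and 0.0802 without the libraries between the populations. With vorinostat, CDC6 was -0.00998 with median-of-ratios scaling and ran from -0.0415 (without EGFR-high library 1) to 0.297. For vorinostat against DMSO in EGFR-low cells, PCNA ran from -0.0276 to 0.337 and CDC6 from -0.0126 to 0.263, both lowest without DMSO library 3. In EGFR-high cells, without the vorinostat libraries numbered 1 and the DMSO libraries between the populations, MCM2 was 0.10, PCNA 0.124, CDC6 0.219, RRM2 0.577, CCNE2 0.139 and E2F1 0.228. Without vorinostat library 1, which gave the highest value of each, CDC6 was 0.111 (lowest -0.264), RRM2 0.398 (lowest -0.309) and E2F1 0.161 (lowest -0.581). Without DMSO library 3, CDC6 was 0.0188 and RRM2 0.109. RRM2 was 0.00484 with quantile normalization and 0.000182 with the trends removed, with or without the block.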
